A study of Oryctolagus cuniculus with 20 samples.

Results

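The contractile core of smooth muscle was followed here through 10 genes: the actins ACTA2 and ACTG2, the myosin heavy chain MYH11, the myosin light chains MYL9 and MYL6, the myosin light chain kinase MYLK, the actin-associated proteins TAGLN, LMOD1 and SYNPO2, and the transcriptional coactivator MYOCD. Of these, 9 were found by gene name in the deposited table and TAGLN through the NCBI gene number in its description, so that all 10 of the 23669 genes in the table were found. The study moved the common carotid artery of the rabbit into a vein. It sampled the transplanted artery 14 and 30 days after surgery (graft), the unoperated carotid artery of the opposite side at the same times (control) and the unoperated external jugular vein, with 4 RNA sequencing libraries in each of the 5 groups. The labels of every library, controls and vein included, further name a cell line (HASMC), a genotype ("tissue") and a treatment ("transplatation"), although their tissue and organism fields describe rabbit vessels. The labels give no strain, age or sex. They call the libraries biological replicates without naming separate animals, so p-values measure only the spread between these samples, which may be technical.

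Smooth muscle contracts when actin and myosin filaments slide past each other. Calcium bound to calmodulin switches on MYLK, which phosphorylates the regulatory light chain of myosin, and myosin phosphatase reverses it. Myocardin (MYOCD) binds serum response factor (SRF) and drives many genes of the apparatus, and loss of these transcripts is the usual mark of smooth muscle cells that leave the contractile state in injured or grafted vessels.

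Levels are in FPKM, that is fragments per kilobase of transcript, corrected for the number mapped, and no read counts were used, so the depth and counting error of each value are unknown. The libraries' FPKM summed to between 327806 and 671582, with the highest sum in graft replicate 2 of day 14. The 4 control libraries of day 14 lay much closer together than the others, with a median SD of 0.0733 in log2(FPKM + 1) over 1265 genes, against 0.135 to 0.324 in the other groups. One library in each of the other 4 groups resembled a mixture of its group's others. Graft replicate 3 of day 14, control replicate 2 of day 30, graft replicate 4 of day 30 and the vein library numbered 1 in the table differed from their best mixture by a median of 0.0775 to 0.0879 in log2. A listed 0 can be a failed estimate, since genes in wide use such as ACTN4 and ILK were listed at 0 in all 16 artery libraries.

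The core was abundant in unoperated artery and low in grafts. The 10 genes made up 4.48% ± 0.0952 (SD, n = 4) of all FPKM in day 14 controls and 0.788% ± 0.131 (SD, n = 4) in day 14 grafts. On day 30 the shares were 5.02% ± 0.918 in controls and 1.07% ± 0.108 in grafts (SD, n = 4 each). Vein lay between them at 2.76% ± 0.112 (SD, n = 4). ACTA2 and MYL6 carried 88.5% to 97.4% of this sum in every library, so the share says little of the other 8 genes. In bulk tissue, fewer smooth muscle cells and less RNA per cell cannot be told apart.

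**Figure D1:**
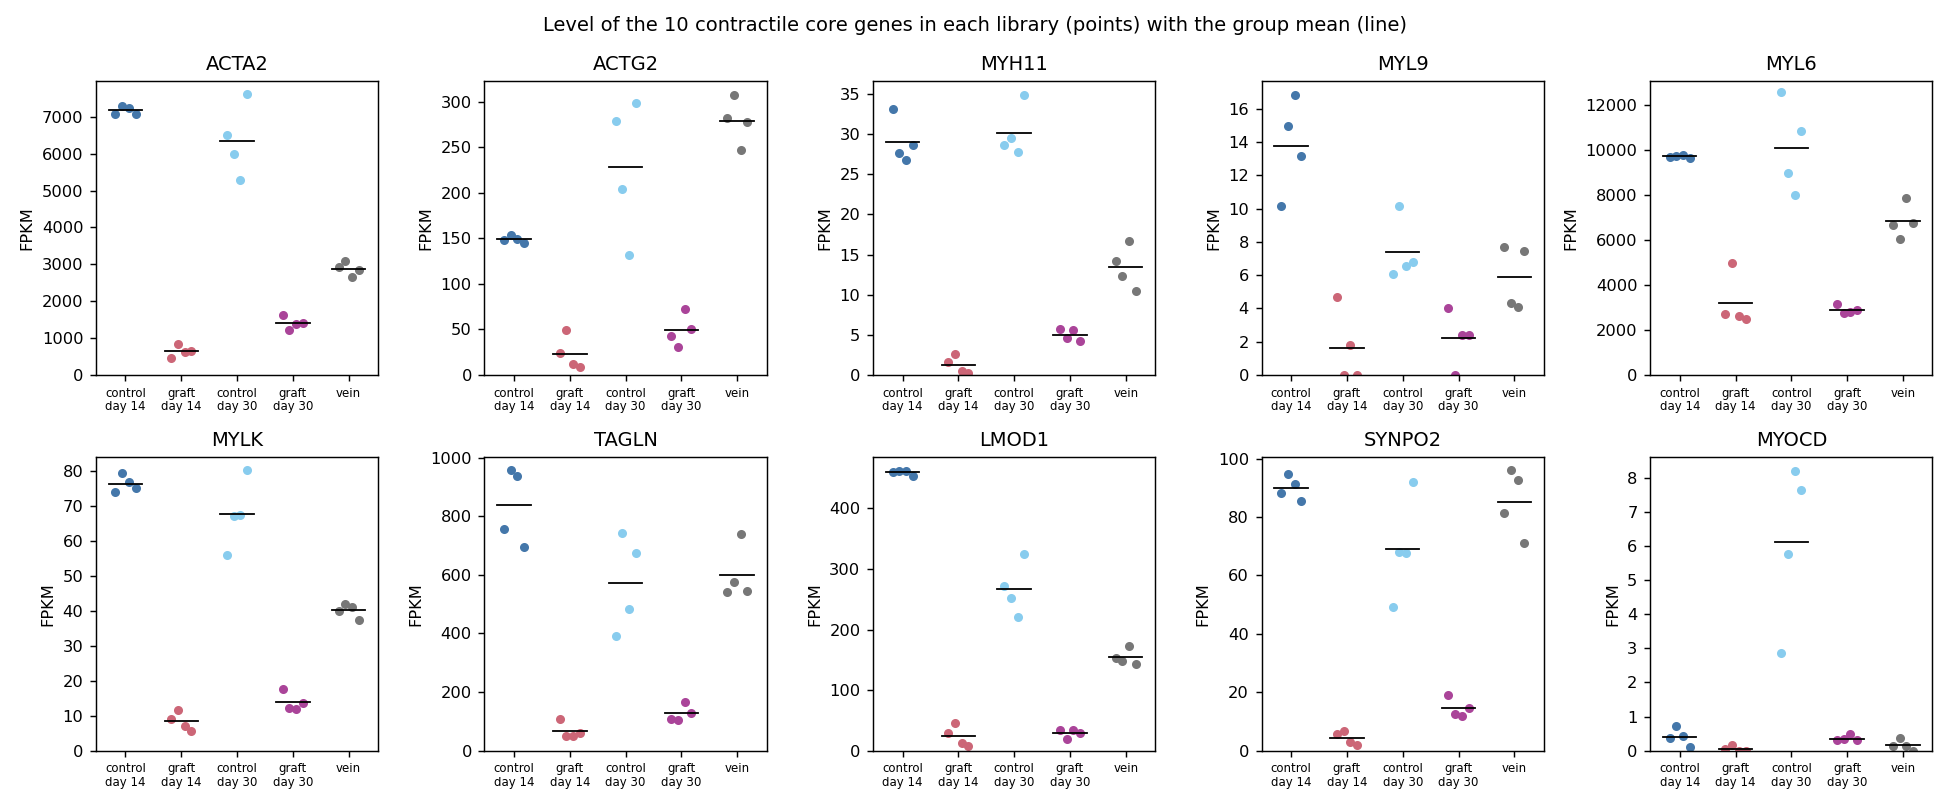
Level of each core gene in FPKM (linear axes from 0, one scale per gene) in the 20 libraries, as points, with the mean of each group of 4 as a line. In both graft groups 9 of the genes lie below the controls of the same day without overlap, and MYOCD is above 1 FPKM in day 30 controls alone.

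Differences were tested with limma on log2(FPKM + 1), with Benjamini-Hochberg adjustment over the 8657 genes that reached 1 FPKM in at least 4 libraries. All 10 core genes passed that filter, but MYOCD did so only through its 4 day 30 control libraries, so that it had to differ there and its calls against that group are a description. On day 14, 9 of the 10 genes were lower in grafts than in controls, where 17.0% of all genes tested were lower. The same 9 had groups that did not overlap, against 16.1% of all genes. On day 30 the same 9 and MYOCD were lower, against 11.6% of all genes, and the groups of each were apart, against 11.2%. The median difference of the core was -3.30 on day 14 and -2.18 on day 30 in log2, while the median of all genes tested was 0.26 and 0.18.

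ACTA2, the main actin of vascular smooth muscle, was at 7086.96, 7302.99, 7229.32 and 7061.11 FPKM in day 14 controls against 467.86, 825.49, 631.83 and 640.10 FPKM in day 14 grafts. By day 30 its values were 6506.27, 5984.88, 5285.54 and 7611.29 FPKM in controls and 1616.74, 1212.88, 1380.73 and 1395.11 FPKM in grafts. Every graft library was far below every control library, and every day 30 graft was above every day 14 graft. The difference from control was -3.51 ± 0.15 in log2 on day 14 and -2.17 ± 0.15 on day 30 (SE, limma, adjusted p = 5.91e-12 and 5.60e-09). The mean FPKM of grafts was 8.94% and 22.1% of that of the controls.

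ACTG2, the enteric actin that vessels also hold, was at 148.56, 153.92, 149.43 and 144.97 FPKM in day 14 controls and at 23.67, 49.20, 12.35 and 8.14 FPKM in grafts. On day 30 the controls were at 278.48, 204.54, 131.52 and 298.97 FPKM and the grafts at 42.83, 31.00, 72.91 and 50.78 FPKM. Grafts and controls did not overlap on either day, though the day 30 controls and the day 14 grafts were widely spread. The log2 differences were -2.93 ± 0.39 and -2.18 ± 0.39 (SE, limma, adjusted p = 5.22e-06 and 2.26e-04).

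MYH11, the smooth muscle myosin heavy chain and the most specific marker of the contractile state among these genes, was at 33.14, 27.69, 26.78 and 28.65 FPKM in day 14 controls and at 1.60, 2.60, 0.43 and 0.19 FPKM in grafts. Day 30 controls held it at 28.67, 29.49, 27.79 and 34.89 FPKM and day 30 grafts at 5.76, 4.55, 5.55 and 4.18 FPKM. The lowest day 30 graft was above the highest day 14 graft, and both graft groups were far below the controls. The log2 differences from control were -3.91 ± 0.25 and -2.38 ± 0.25 (SE, limma, adjusted p = 1.07e-09 and 9.36e-07).

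MYL6, the essential light chain shared with non-muscle myosin, was at 9690.90, 9722.92, 9783.21 and 9659.46 FPKM in day 14 controls and at 2710.44, 4990.85, 2629.69 and 2500.80 FPKM in grafts. By day 30 its values were 12560.92, 8957.86, 7992.27 and 10849.22 FPKM in controls and 3157.19, 2756.34, 2781.96 and 2905.69 FPKM in grafts. The groups of each day were apart, with graft replicate 2 of day 14 well above the other 3. The log2 differences were -1.66 ± 0.19 and -1.78 ± 0.19 (SE, limma, adjusted p = 8.09e-07 and 8.77e-07), and the mean FPKM of grafts was 33.0% and 28.7% of that of the controls. On day 14 this was the highest share left in the core, and on day 30 that of MYL9 was higher, at 29.8%.

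MYL9, the regulatory light chain that MYLK phosphorylates in smooth muscle, was at 10.14, 14.96, 16.82 and 13.15 FPKM in day 14 controls and at 4.71, 0.00, 1.82 and 0.00 FPKM in grafts. On day 30 it was at 6.07, 10.15, 6.53 and 6.78 FPKM in controls and at 4.00, 0.00, 2.41 and 2.39 FPKM in grafts. The groups were apart on both days, and the log2 differences were -2.86 ± 0.50 and -1.58 ± 0.50 (SE, limma, adjusted p = 1.13e-04 and 0.0192). The day 30 call was lost without the 4 mixture-like libraries (adjusted p = 0.0898), with a pseudocount of 0.1 (0.0957), and without graft replicate 2 (0.0798) or control replicate 2 (0.0553) of day 30. MYL9 is uncertain for a further reason: a locus described as a MYL9 pseudogene, looked up after the table was seen, was listed at 140 ± 11.6 FPKM in day 14 controls and 114 ± 16.3 in day 14 grafts (SD, n = 4), far above MYL9 itself, and the counting could have split reads between them.

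MYLK was at 73.91, 79.46, 76.90 and 75.11 FPKM in day 14 controls and at 9.05, 11.75, 7.11 and 5.63 FPKM in grafts. On day 30 it was at 55.89, 67.03, 67.30 and 80.32 FPKM in controls and at 17.54, 12.20, 11.77 and 13.52 FPKM in grafts. Grafts lay below controls throughout, and the lowest day 30 graft was just above the highest day 14 graft. The log2 differences were -3.09 ± 0.16 and -2.22 ± 0.16 (SE, limma, adjusted p = 8.99e-11 and 1.36e-08).

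TAGLN (transgelin), which crosslinks actin filaments, was at 757.81, 958.08, 938.66 and 693.74 FPKM in day 14 controls and at 108.92, 48.42, 49.21 and 60.51 FPKM in grafts. The day 30 values were 391.04, 743.90, 483.39 and 675.60 FPKM in controls and 109.29, 105.67, 165.03 and 128.42 FPKM in grafts. Grafts and controls were apart on both days, and graft replicate 1 of day 14 reached the level of the day 30 grafts. The log2 differences were -3.70 ± 0.24 and -2.14 ± 0.24 (SE, limma, adjusted p = 1.37e-09 and 2.11e-06).

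LMOD1 (leiomodin), which nucleates actin filaments in smooth muscle, was at 461.06, 462.65, 462.76 and 453.79 FPKM in day 14 controls and at 29.82, 46.35, 12.77 and 7.41 FPKM in grafts. On day 30 it was at 272.58, 251.67, 220.23 and 324.91 FPKM in controls and at 33.40, 19.42, 33.29 and 28.94 FPKM in grafts. All day 30 grafts lay within the range of the day 14 grafts. On the log2(FPKM + 1) scale LMOD1 differed most of the core on both days, by -4.51 ± 0.36 and -3.19 ± 0.36 (SE, limma, adjusted p = 1.25e-08 and 1.81e-06), and stood at rank 23 and 35 among the 8657 genes ordered from the largest fall. The order depends on the scale: the mean FPKM of day 14 grafts was 5.24% of that of the controls for LMOD1 but 4.15% for MYH11 and 4.78% for SYNPO2, and on day 30 it was 10.8% for LMOD1 and 5.75% for MYOCD.

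SYNPO2 (myopodin), an actin-bundling protein of dense bodies and Z-discs, was at 88.08, 94.79, 91.20 and 85.64 FPKM in day 14 controls and at 5.82, 6.54, 2.90 and 1.93 FPKM in grafts. The day 30 values were 49.01, 67.93, 67.80 and 91.95 FPKM in controls and 18.92, 12.51, 11.87 and 14.51 FPKM in grafts. The lowest day 30 graft was above the highest day 14 graft. The log2 differences from control were -4.21 ± 0.25 and -2.17 ± 0.25 (SE, limma, adjusted p = 3.18e-10 and 2.12e-06).

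MYOCD did not follow the other genes in the controls, where it was below 1 FPKM on day 14 and above 1 FPKM on day 30. It was at 0.36, 0.71, 0.43 and 0.10 FPKM in day 14 controls and at 0.04, 0.15, 0.00 and 0.00 FPKM in grafts, ranges that overlapped. On day 30 it was at 2.87, 5.77, 8.22 and 7.66 FPKM in controls and at 0.30, 0.33, 0.48 and 0.30 FPKM in grafts, which were apart. The log2 difference of -0.40 ± 0.21 on day 14 did not pass (SE, limma, adjusted p = 0.123). It passed with a pseudocount of 0.1 (-1.70, adjusted p = 0.00978), which compresses such low levels less, as TPM (0.0473) and after quantile normalization (0.0298). On day 30 the difference was -2.32 ± 0.21 (SE, limma, adjusted p = 1.77e-07), a description, since MYOCD passed the filter only through these controls. The mean FPKM of grafts was 11.9% of that of the controls on day 14, where all values were below 1 FPKM, and 5.75% on day 30.

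**Figure D2:**
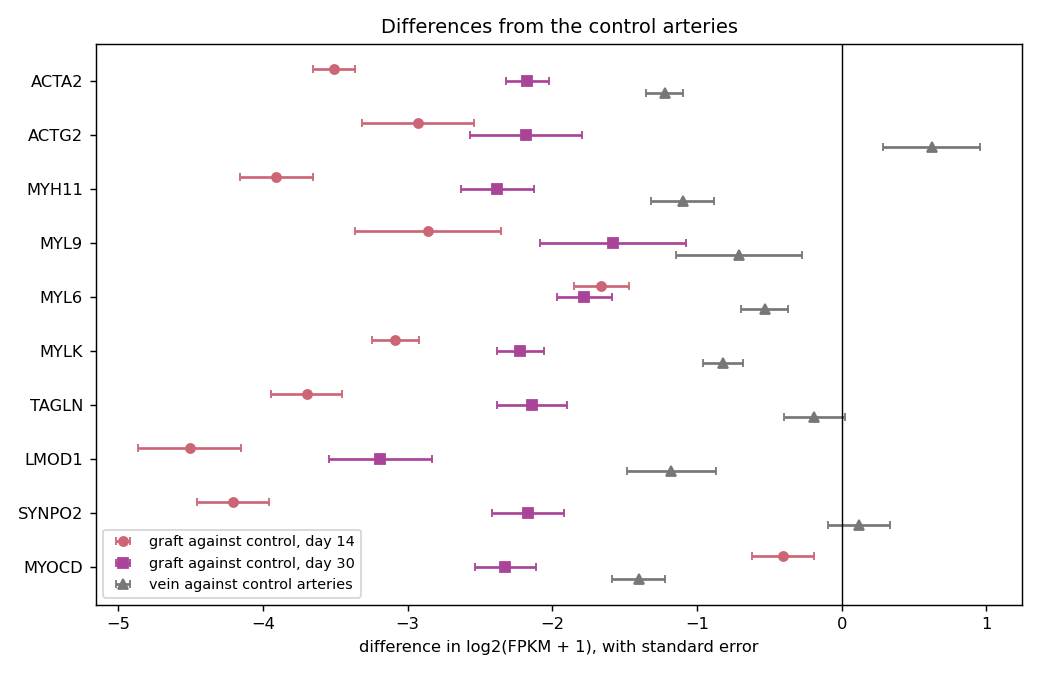
Difference of each core gene from the control arteries in log2(FPKM + 1), with limma's standard error, for grafts of each day against controls of that day and for vein against all 8 control libraries. Day 14 values (circles) lie further below 0 than day 30 values (squares) for 8 genes, with MYL6 and MYOCD the exceptions, and vein (triangles) lies nearer to 0 for all genes but MYOCD.

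How far the deficit changed between the days was tested as the difference of both graft effects. It was smaller on day 30 for 5 genes, where 5.38% of all genes moved that way: by 1.34 for ACTA2, 1.53 for MYH11, 0.86 for MYLK, 1.56 for TAGLN and 2.04 for SYNPO2 in log2 (limma, adjusted p = 5.95e-04, 0.00962, 0.0195, 0.00705 and 0.00121). It was larger on day 30 for MYOCD alone, by -1.92 (adjusted p = 6.46e-04), where 7.57% of all genes moved that way. MYOCD passed the filter only through its day 30 controls, so its call here is a description. ACTG2, MYL9, MYL6 and LMOD1 did not pass, with 0.75 ± 0.55, 1.28 ± 0.71, -0.12 ± 0.27 and 1.32 ± 0.51 (SE, adjusted p = 0.404, 0.254, 0.808 and 0.0936). Differences between the controls of both days enter these changes, which are not those of grafts alone. For the 5 genes with a smaller deficit they were -0.58 for TAGLN, -0.41 for SYNPO2, -0.19 for ACTA2, -0.18 for MYLK and 0.05 for MYH11, and did not pass. With the day 14 controls counted as 1 sample, limma called 0 smaller deficits, with 5 at an unadjusted p under 0.05, and without the 4 mixture-like libraries it called 3. The call of MYOCD was lost with a pseudocount of 0.1.

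Between the grafts themselves, 6 genes were higher on day 30 than on day 14, where 8.01% of all genes were. SYNPO2 rose by 1.63 ± 0.25, MYH11 by 1.58 ± 0.25, ACTG2 by 1.29 ± 0.39, ACTA2 by 1.15 ± 0.15, TAGLN by 0.98 ± 0.24 and MYLK by 0.68 ± 0.16 in log2 (SE, limma, adjusted p from 6.97e-05 to 0.0317). Of these, ACTG2 and TAGLN overlapped between the days. The call of ACTG2 was lost when any of 5 single graft libraries was left out (replicate 3 or 4 of day 14, or 1, 3 or 4 of day 30; adjusted p = 0.0585 to 0.102), with no filter (0.0520) and with the day 14 controls counted as 1 sample (0.0682). MYL9, MYL6, LMOD1 and MYOCD did not pass. For MYOCD every day 30 graft (0.30 to 0.48 FPKM) was above every day 14 graft (0.00 to 0.15 FPKM), as for 7.29% of all genes. With a pseudocount of 0.1 MYOCD passed (1.71 in log2, limma, adjusted p = 0.0360), at levels that were all below 1 FPKM. The count was 2 with the 2 graft groups fitted alone, 3 without the mixture-like libraries, and 0, with 5 at an unadjusted p under 0.05 in limma, when these were left out and the day 14 controls counted as 1 sample.

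Between the controls, 1 gene was called: MYOCD was higher on day 30 by 2.29 ± 0.21 in log2 (SE, limma, adjusted p = 2.50e-06), where 6.28% of all genes were. MYOCD passed the filter only through its day 30 controls and had to differ there, so this call is a description. Its means were 0.400 ± 0.251 and 6.13 ± 2.41 FPKM (SD, n = 4), and the call was lost when the mixture-like libraries were left out and the day 14 controls counted as 1 sample. LMOD1 was lower in every day 30 control than in any day 14 control, at 267 ± 44.0 against 460 ± 4.25 FPKM (SD, n = 4), and 10.0% of all genes had controls apart in this direction, but its difference of -0.80 ± 0.36 did not pass (adjusted p = 0.176). LMOD1 passed as lower when only the control groups were fitted (limma, adjusted p = 0.00421) and when libraries were weighted by group (0.028). The other 8 genes overlapped between the controls, with differences from -0.82 for MYL9 to 0.54 for ACTG2. Of these, MYL9 passed as lower when only the control groups were fitted (limma, adjusted p = 0.0297). The comparisons of grafts with controls, of grafts between days and of controls between days share libraries and are not independent of each other.

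**Figure D3:**
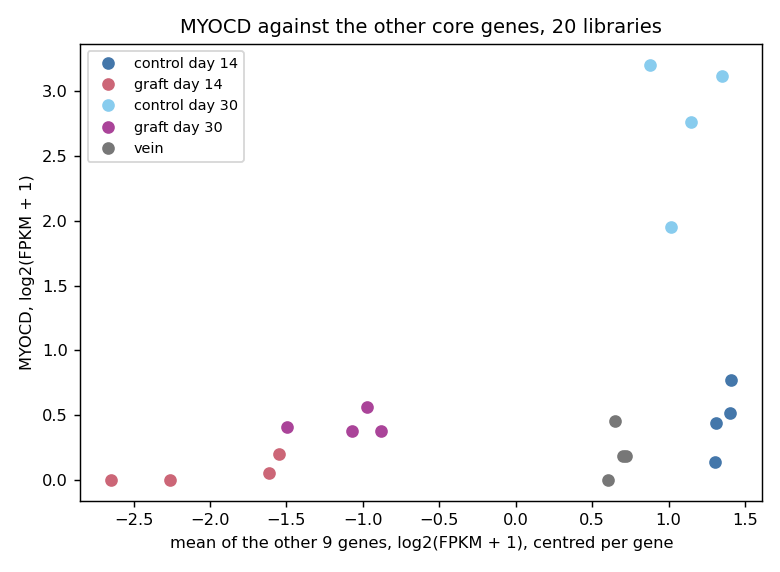
MYOCD against the mean of the other 9 core genes, each in log2(FPKM + 1) and the latter centred per gene, with 1 point per library. Day 30 controls stand above all other libraries in MYOCD, while the controls of both days overlap in the mean of the other 9 genes.

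Unoperated vein held less of the core than control arteries, but not of every gene. Against the mean of both control groups, 6 genes were lower, where 12.0% of all genes were. The lower genes were MYOCD, ACTA2, LMOD1, MYH11, MYLK and MYL6, by -1.40, -1.22, -1.18, -1.10, -0.82 and -0.53 in log2 (limma, adjusted p from 6.76e-07 to 0.0154). The call of MYL6 was lost with quantile normalization (limma, adjusted p = 0.181) and with no filter (0.0561). It was also lost without the vein library numbered 2 (0.0579) and without the 4 mixture-like libraries (0.0656). For ACTA2, MYH11, MYLK, LMOD1 and MYL6 every vein library was below every control library, against 7.96% of all genes. MYOCD was listed at 0.14, 0.37, 0.14 and 0.00 FPKM in vein, a range that overlaps that of the day 14 controls, so its call rests on the day 30 controls. It passed the filter only through these, so the call is a description.

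ACTG2 was not among the lower genes in vein. It was at 281.77, 307.79, 246.70 and 278.20 FPKM there, above every day 14 control and within the range of the day 30 controls but for 1 library, and its difference of 0.62 ± 0.34 did not pass (SE, limma, adjusted p = 0.165). ACTA2 in vein was at 2916.23, 3084.51, 2658.90 and 2851.34 FPKM. ACTG2 passed as higher in vein when only the groups compared were fitted and when libraries were weighted by group. SYNPO2 at 85.3 ± 11.3 FPKM and TAGLN at 599.9 ± 94.4 FPKM in vein (SD, n = 4) overlapped the controls, with differences of 0.12 ± 0.21 and -0.19 ± 0.21 (SE, adjusted p = 0.711 and 0.525). With the mixture-like libraries left out and the day 14 controls counted as 1 sample, 2 of the 6 lower genes passed.

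Grafts were also below unoperated vein. On day 14, 9 genes were lower in grafts than in vein, where 17.5% of all genes were, from -1.15 for MYL6 to -4.12 for SYNPO2. On day 30, 8 genes were lower, where 14.2% of all genes were, from -1.04 for ACTA2 to -2.53 for ACTG2. MYOCD did not pass on either day, and MYL9 did not pass on day 30 (-1.28 ± 0.50, SE, limma, adjusted p = 0.0604).

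For 5 of the 10 genes, ACTA2, MYH11, MYL9, MYLK and LMOD1, the controls came first in the order of group means, then vein, day 30 grafts and day 14 grafts. In this order the controls of both days overlapped for ACTA2, MYH11, MYL9 and MYLK, and the grafts of both days overlapped for MYL9 and LMOD1, while vein and day 30 controls overlapped for MYL9. ACTG2 had vein first, overlapping the day 30 controls, and TAGLN and SYNPO2 had vein between the controls, overlapping both. MYL6 had day 14 grafts above day 30 grafts, with overlap, and MYOCD had day 30 controls alone at the top.

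Within libraries, core genes were set against paralogs in other cells, against each other, or against PPP1R12A, a subunit of myosin phosphatase. Values were log2 ratios of FPKM + 1. The added 1 pulls the ratios of genes near or below 1 FPKM together, so the ratios were also taken of FPKM itself where no value was 0. Of 11 ratios listed, 3 held a gene that was not found, and LMOD1/TMOD3 was dropped after the values were seen because TMOD3 was listed at 0 in all libraries. The remaining 7 ratios were tested in 6 comparisons by a two-sided exact permutation test of 4 against 4 libraries, whose smallest possible p is 0.0286. Of these 42 tests, 20 reached that p and 0 passed after Benjamini-Hochberg adjustment (lowest adjusted p = 0.0600). With the dropped ratio kept, 0 of 48 passed (lowest 0.0549).

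MYH11 relative to MYH9, the non-muscle heavy chain found in most cells, had log2 ratios of 3.03 ± 0.18 in day 14 controls, -1.80 ± 0.68 in day 14 grafts, 2.95 ± 0.47 in day 30 controls and -0.13 ± 0.20 in day 30 grafts (SD, n = 4). The groups of each day were apart, by -4.83 and -3.08. TAGLN relative to TAGLN2, the transgelin of non-muscle cells, differed between grafts and controls by -5.18 on day 14 and -3.31 on day 30. MYL9 relative to MYL12B, a non-muscle regulatory light chain, differed by -4.32 and -2.98. MYL9 was listed at 0.00 in some grafts of both days, so these values rest on the added 1. They could not be taken of FPKM itself, and the uncertainty from the MYL9 pseudogene locus applies to them too. For MYH11/MYH9, TAGLN/TAGLN2 and MYL9/MYL12B every graft library was below every control library (exact permutation p = 0.0286 each, adjusted p = 0.0600). MYH11 relative to a further paralog, MYH10, differed by less than over MYH9, by -2.98 on day 14 and -1.51 on day 30, with groups apart. MYLK relative to PPP1R12A differed by -1.39 on day 14, with groups apart. On day 30 it differed by only -0.14 and the groups overlapped. In FPKM itself the day 14 groups of MYLK/PPP1R12A overlapped too, with a difference of -1.28.

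ACTA2 to MYH11 gave different answers with and without the added 1. With it the groups overlapped in all 6 comparisons, with log2 differences from -0.43 to 0.40. In FPKM itself ACTA2 was 214, 264, 270 and 246 times MYH11 in day 14 controls and 292, 317, 1469 and 3369 times in day 14 grafts, where MYH11 was below 1 FPKM in the highest 2. The day 30 values were 227, 203, 190 and 218 in controls and 281, 267, 249 and 334 in grafts. On both days every graft was then above every control, by 1.73 and 0.43 in log2 (exact permutation p = 0.0286 each, adjusted p = 0.0619 over the 39 tests possible without the added 1). ACTA2 to ACTG2 was 47.1 to 48.4 on a linear scale in day 14 controls, 23.3 to 39.9 in day 30 controls and 9.99 to 10.7 in vein, so that vein was apart from both. Its log2 difference was -2.21 from day 14 controls and -1.48 from day 30 controls (exact permutation p = 0.0286 each, adjusted p = 0.0600). In grafts it spread from 16.5 to 70.1 on day 14 and from 18.7 to 37.9 on day 30.

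**Figure D4:**
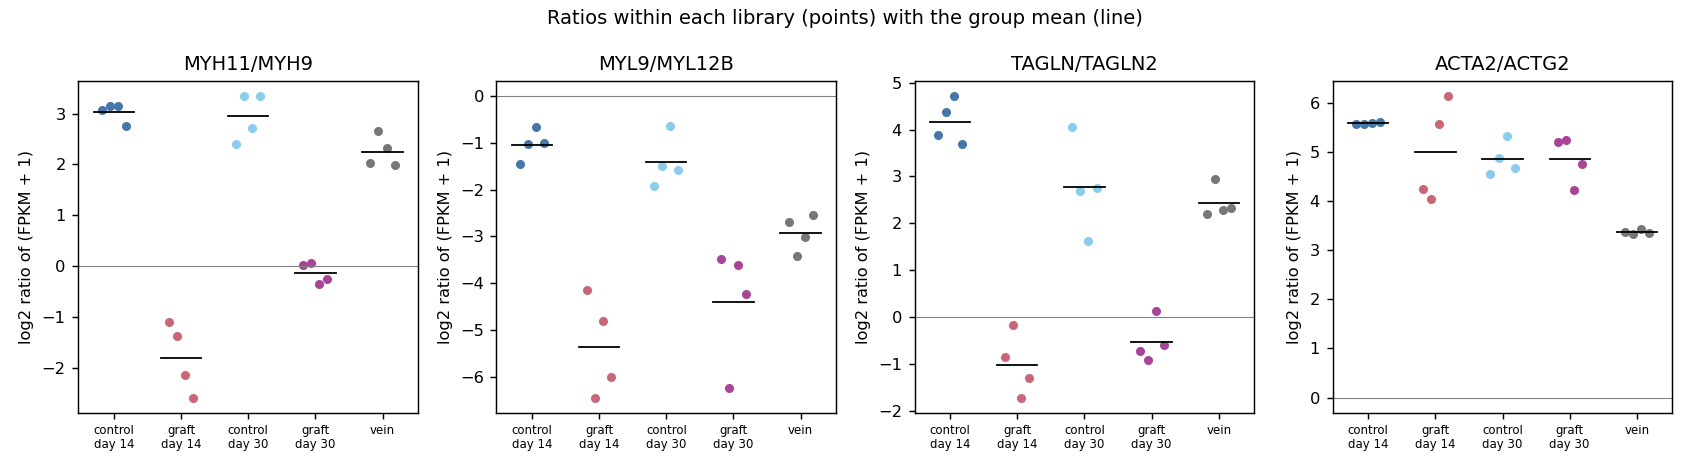
Log2 ratios of FPKM + 1 within each library (points) with the mean of each group of 4 (line) for MYH11/MYH9, MYL9/MYL12B, TAGLN/TAGLN2 and ACTA2/ACTG2. Grafts lie below controls in the first 3 panels, and every vein library lies below all others in the last.

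MYL6 was the only core gene with more than 1 transcript in the table. The split between its 2 transcripts was looked at after the table was seen and is a description with no test. The less abundant transcript made up 30.6% ± 0.390 of MYL6 in day 14 controls, 33.4% ± 0.486 in day 14 grafts, 30.1% ± 1.93 in day 30 controls and 35.2% ± 3.12 in day 30 grafts (SD, n = 4 each). In vein it made up 14.7%, 13.4%, 16.4% and 13.8%, below all 16 artery libraries. Its level of 1003 ± 206 FPKM in vein was near that of the grafts, while the more abundant transcript stood at 5826 ± 565 FPKM in vein and 2138 ± 798 FPKM in day 14 grafts (SD, n = 4).

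**Figure D5:**
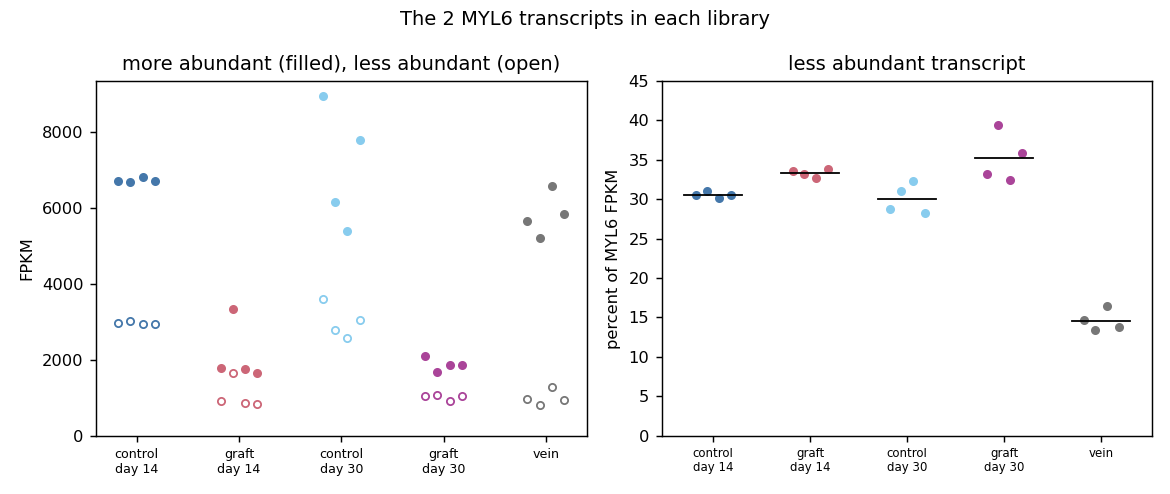
The 2 MYL6 transcripts in each library, as FPKM on the left (filled, the more abundant; open, the less abundant) and as the percent of MYL6 in the less abundant one on the right, with group means as lines. Vein lies at 13.4% to 16.4%, all artery libraries at 28.2% to 39.4%.

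Across the 20 libraries the core moved together apart from MYOCD. The correlation of a gene with the mean of the other 9 was 0.99 for MYLK and 0.98 for MYH11, 0.82 for MYL9 and 0.47 for MYOCD. These values describe 20 libraries in 5 groups that differ in level, and carry no test. Among the genes outside the core most like its mean, of 2006 with at least 20 FPKM in some group, were NPY1R, a receptor for neuropeptide Y (r = 0.99, n = 20), PBXIP1 (0.99), LIMS2 (0.99), FAM129A (0.98), PCOLCE2 (0.98) and ADAMTSL4 (0.97). NPY1R was at 62.7 ± 0.816 FPKM in day 14 controls and 2.62 ± 1.81 in day 14 grafts (SD, n = 4).

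Other lists are read against all genes tested, of which 17.0% were lower and 36.5% higher in grafts on day 14, and 11.6% and 26.0% on day 30. Genes of filaments and adhesions were mixed. Of 16 tested, 10 were lower and 3 higher in grafts on day 14, and 9 were lower and 4 higher on day 30. The share of higher genes was below that of all genes on day 14 and near it on day 30. Their median differences were -0.91 and -0.65. PGM5, a protein of muscle adherens junctions, fell by 4.95 and 5.02 in log2 (SE 0.37, limma, adjusted p = 6.05e-09 and 1.47e-08), and CSRP1, a LIM protein of smooth muscle, by 2.52 and 2.46. The intermediate filament protein VIM fell by 1.48 and 0.89, and the LIM protein FHL1 by 2.09 and 0.96. The tropomyosins TPM1 and TPM4 and the actinin ACTN1, named after their values were seen, were the genes that rose on both days.

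Of 15 genes that control light chain phosphorylation, 7 were lower and 2 higher on day 14, and 4 lower and 1 higher on day 30. On both days the share of higher genes was smaller than among all genes. PPP1R14A, the inhibitor of myosin phosphatase known as CPI-17, was at 1139.5 ± 43.8 FPKM in day 14 controls and 105 ± 54.7 in grafts (SD, n = 4) and fell by 3.58 ± 0.26 and 2.45 ± 0.26 in log2 (SE, limma, adjusted p = 5.01e-09 and 1.16e-06). PPP1R12A, the targeting subunit of myosin phosphatase, fell by 1.69 and 2.09, and the calmodulin gene CALM2 by 0.92 and 0.75. ITPR1, a calcium release channel, fell by 1.07 on day 14 (adjusted p = 1.05e-07) and had a difference of -0.21 on day 30 (adjusted p = 0.122).

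Of 10 transcriptional regulators tested, 4 were lower and 2 higher on day 14, and 2 lower and 1 higher on day 30, with a smaller share of higher genes than among all genes on both days. SRF, the partner of MYOCD, was at 54.1 ± 2.06 FPKM in day 14 controls and 22.8 ± 3.08 in grafts (SD, n = 4), and fell by 1.22 ± 0.14 and 0.66 ± 0.14 in log2 (SE, limma, adjusted p = 1.52e-06 and 0.00144). TEAD1 fell by 1.19 on day 14 and MEF2D by 0.76 and 0.61. HEYL, a Notch target, rose by 1.22 ± 0.19 and 1.44 ± 0.19 (adjusted p = 3.52e-05 and 1.23e-05). Of 7 paralogs tested, 4 were higher and 3 lower on day 14, and 2 higher and 2 lower on day 30, where the higher share was near that of all genes. MYL12B rose by 1.46 and 1.40 and MYH9 by 0.93 and 0.70, while TMOD1, a tropomodulin that caps actin filaments, fell by 3.02 and 2.75.

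Markers of other cell types differed between the same groups, and their part in the results on the core was not tested. The summed level of 12 macrophage markers found was 14.7 to 16.7 FPKM in day 14 controls and 264 to 586 FPKM in day 14 grafts, and 19.4 to 39.3 against 222 to 394 FPKM on day 30. CD68 and AIF1 were listed at 0 in all control and vein libraries. The 9 lymphocyte markers stood at 0.290 to 2.30 FPKM in day 14 controls and at 46.3 to 84.3 FPKM in day 14 grafts, with 6 of 6 tested higher, against 36.5% of all genes. The 10 endothelial markers stood at 31.7 to 33.9 against 138 to 283 FPKM, and at 573 to 735 FPKM in vein. The 9 fibroblast markers were at 1898 to 2075 FPKM in day 14 controls and 3268 to 4062 FPKM in day 14 grafts. Of these 9, 3 were higher, 3 lower and 3 not called on day 14, with a median log2 difference of 0.23 and a lowest one of -4.96, for PI16. On day 30, 4 were higher and 0 lower.

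Other marker lists had lower sums in day 14 grafts. The 12 skeletal and cardiac muscle markers found were at 562 to 624 FPKM in day 14 controls and 9.03 to 81.1 FPKM in grafts, and at 29.1 to 40.3 FPKM in vein, with TNNC2 listed at 0 throughout. Of 4 tested, 4 were lower on day 14, against 17.0% of all genes. The 6 pericyte markers were at 3318 to 3385 FPKM in day 14 controls and 211 to 349 FPKM in grafts, and RGS5, which vascular smooth muscle also expresses, made up most of it, at 3294 ± 32.2 and 197 ± 90.8 FPKM (SD, n = 4). Of the 4 pericyte markers tested, 3 were lower and 1, PDGFRB, higher on day 14, and 1 was lower and 1 higher on day 30. The 8 Schwann cell and nerve markers were at 67.5 to 80.2 against 6.31 to 32.3 FPKM, with 6 lower and 1, MBP, higher on day 14, and 4 lower and 4 not called on day 30. Adipocyte and erythroid markers did not go this way. The 5 adipocyte markers found were at 49.3 to 52.7 against 294 to 1427 FPKM, with 3 of 4 tested higher on day 14. The 2 erythroid markers found were at 712 to 756 against 644 to 3911 FPKM, with 0 of 1 tested called on either day, and reached 2592 to 21150 FPKM in vein.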

How the data were processed

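Per the labels' protocols, total RNA of rabbit vessels was read as paired ends on the NovaSeq X Plus. The submitters' processing notes name fastp, HISAT2, StringTie, RSEM and DESeq2 without versions. A genome build is not given in the sources used here. FPKM of 24964 transcripts were deposited by the authors in 1 table and were summed to 23669 genes. No counts were used, so no interval for counting error can be given.

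Vein columns carry numbers that cannot be tied to single sample titles and were used as 4 unnumbered vein libraries. The mixture-like vein library, named in an earlier analysis by the number 4, was taken as the column numbered 1, after its likeness to a mixture was seen and since the library of that name carries replicate 4 in its title.

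limma 3.58.1 in R 4.3.3 was fitted to log2(FPKM + 1) of the deposited values, with 1 mean per group over all 20 libraries and variances that follow the mean level. Tests were two-sided, with Benjamini-Hochberg adjustment over 8657 genes and a threshold of 0.05. Fold changes on this scale understate those of low genes. The procedure was tested on simulated data in which each gene had the same spread in all groups. That test does not cover the unequal spreads of the groups here. Ratios were tested by exact permutation with scipy 1.17.1. Alternatives covered pseudocount, filter, scaling, the libraries in the fit, weights, each library left out, and a replicate block. The ratio over TMOD3 was dropped after its values were seen.

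Core genes and lists were chosen with earlier results of these data known. All core genes are named, and in each list the 3 genes tested with the smallest adjusted p on each day, and the denominators of ratios, were eligible. Some genes eligible in this way are not reported here. A few further genes, named as such, were chosen after their values were seen. Symbols of genes without one in the table were taken through NCBI gene numbers from RefSeq's rabbit table (mOryCun1.1).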

Additional observations from a re-analysis of the deposited data

Results flagged for a closer look

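In 2 of 55 groups of 4 libraries examined, 1 library stood apart from the other 3, where chance alone gives about 1 in 20. MYL6 was at 4990.85 FPKM in graft replicate 2 of day 14, the library with the largest sum of FPKM, against 2500.80 to 2710.44 FPKM in the other 3. MYOCD was at 0.48 FPKM in graft replicate 3 of day 30, against 0.30 to 0.33 FPKM in the others, a gap of little size at this level.

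By limma's test of that difference, the graft effect differed between the days for 5 core genes and, as a description only, for MYOCD. The effect was less negative on day 30 by 1.34 in log2 for ACTA2, 1.53 for MYH11, 0.86 for MYLK, 1.56 for TAGLN and 2.04 for SYNPO2, and more negative for MYOCD, by -1.92. MYOCD passed the filter only through its day 30 controls. The change of MYOCD goes with its level in the control arteries, which was 0.400 FPKM on day 14 and 6.13 FPKM on day 30.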

How the results depend on the processing

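The day 14 controls were nearly identical, and the depth behind each value is unknown. Of 2522 values of single core genes recomputed under the alternatives, 2430 kept their direction and side of the threshold, 57 lost the call, 20 gained it and 15 turned. Of 459 ratio differences 439 kept both and 20 turned. Graft against control kept 8 to 10 core genes lower on day 14 and 9 or 10 on day 30. The causes of the changes below were not tested.

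With the day 14 controls as 1 sample, genes called were 2499 for graft against control on day 14, 93 for the change of the graft effect, 29 between controls and 2036 for vein, against 4634, 1121, 929 and 3214 as reported, and 0 core genes had a smaller deficit. Without the mixture-like libraries the counts were 381 for the change of the graft effect, 433 between controls, 424 between grafts (1412 as reported) and 1918 for day 30 grafts against vein (2894), with 3 core genes in the change and 3 between grafts. With both changes they were 1641 and 1758 for graft against control on day 14 and 30, 7 for the change, 8 between controls, 88 between grafts, 1110 for vein, and 2077 and 1285 for day 14 and day 30 grafts against vein. Core genes then numbered 0 in either direction of the change, 0 between grafts, 0 higher between controls and 2 lower in vein.

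TPM gave 557 genes for the change and 828 between grafts. Weights by group gave 1536 between controls and 757 between grafts, with 1 core gene higher in vein and 1 lower between controls. Fitting only the groups compared gave 321 between grafts, with 2 core genes, and 1 core gene higher in vein and 2 lower between controls. At a filter of 5 FPKM MYOCD was not tested, which left 0 core genes in its 2 calls between days, and a pseudocount of 0.1 gave 0 larger deficits. The replicate number as a block, fitted over the 16 artery libraries because vein columns carry no usable number, gave 441 genes and 3 core genes for the change, 4 core genes between grafts (ACTG2 and TAGLN at an adjusted p of 0.0954 and 0.0526) and an adjusted p of 0.0731 for MYL9 on day 30. It was not run for comparisons with vein. Between control and graft of the same day, correlations ran from -0.29 to 0.24 for same-numbered libraries and from -0.32 to 0.30 for differently numbered ones. Between days, same-numbered libraries reached 0.37. These are departures from a mean of 4 libraries, and the day 14 controls were nearly identical, so they cannot decide on pairing. The numbers were not taken as pairs. Leaving out each library gave 918 to 1658 genes between grafts, with the lowest count without graft replicate 1 of day 30.

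Values that turned were small and without a call. Between controls, ACTA2 was 0.0378 (TPM) and 0.14 (quantile), MYLK 0.0402 (TPM), MYH11 -0.0028 (median of ratios) and -0.0054 (quantile), and MYL6 -0.0248 (median of ratios). MYL6 between grafts was 0.13 (TPM) and 0.18 (quantile), SYNPO2 in vein -0.0607 (median of ratios) and MYOCD in day 30 grafts against vein -0.0658 (quantile). With each library left out, values ran between controls from -0.0159 to 0.12 for MYH11 and from -0.0796 to 0.14 for MYL6, and for MYL6 from -0.18 to 0.15 between grafts and from -0.22 to 0.12 in the change of the graft effect.

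Among ratios, ACTA2/MYH11 in vein against day 30 controls was 0.0559 and 0.0497 with pseudocounts of 0 and 0.1 and 0.0077 without the mixture-like libraries, where ACTA2/ACTG2 between grafts was 0.0847 and MYLK/PPP1R12A in grafts against controls of day 30 was 0.12. With each library left out, ACTA2/MYH11 in vein ran from -0.11 to 0.14, TAGLN/TAGLN2 in vein against day 30 controls from -0.74 to 0.077, MYH11/MYH9 between controls from -0.22 to 0.0935, ACTA2/ACTG2 from -0.46 to 0.24 between grafts and from -0.12 to 0.22 in grafts against controls of day 30, and MYLK/PPP1R12A there from -0.52 to 0.0535.

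Scaling moved the median of all genes by over 0.1 in log2. For graft against control it moved by -0.22 and -0.15 (median of ratios), -0.17 and -0.20 (TPM) and -0.28 and -0.24 (quantile) on day 14 and 30, and the calls on day 14 went from 3161 higher and 1473 lower to 2367 and 2137, 2136 and 1652, and 2192 and 2280. On day 30 they went from 2253 and 1000 to 1693 and 1474, 1270 and 1256, and 1482 and 1690. In vein they went from 2178 and 1036 to 1582 and 1544 (median of ratios) and 1601 and 1431 (quantile). TPM gave 750 higher and 78 lower between grafts and 846 and 137 between controls.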
